A study of Mus musculus with 12 samples.

Results

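The genes described here are 46 genes of the urea cycle and of amino acid catabolism, chosen by name, nearly all of them enzymes that act on amino acids or their nitrogen in liver. All 46 were among the 16821 genes measured, and all 46 passed the filter on low levels that left 10241 genes for testing. Their levels come from livers of adult male C57BL/6J mice, 1 library for each mouse. The Con group was 6 sedentary mice kept in the same room without running. The Exe group was 6 mice whose training, over 6 weeks, was treadmill running of moderate intensity. Both groups carried no engineered allele and received no drug, and the livers were flushed with saline before collection. The question of the comparison is whether the mRNA of these genes stood at another level in livers of mice that had run for 6 weeks. The livers were collected within a day of the last run, so effects of the training and of the last run cannot be told apart.

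Liver is the main organ that takes amino acids apart. Aminotransferases and deaminases move their nitrogen to glutamate, aspartate and ammonia, and the urea cycle joins ammonia and aspartate nitrogen into urea, which leaves through the kidney. The carbon skeletons pass along separate chains of enzymes, 1 chain for each amino acid or small group of amino acids, into glucose, ketone bodies or the citric acid cycle. Several of these genes are known to follow glucocorticoids, glucagon and protein intake.

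The unit is FPKM, the number of fragments relative to transcript length and to library size, so levels can be set side by side between genes per unit of length. FPKM added up to 735200–820107 in each mouse. The depth in reads is unknown, and the relative depth of the 12 mice, estimated from 36 genes with few reads in a search that could find differences of up to 15%, lay between 0.985 and 1.024 (largest standard error 0.015). Hepatocyte markers, 9 of 10 in the files and none at 0, summed to between 71832 and 97562 FPKM, so markers of the labelled tissue were present. Among markers of other cells, none at 0 in all mice, the sum was 195–357 FPKM in the Con group and 137–324 FPKM in the Exe group for Kupffer cells (7 of 7), and 27.2–75.0 and 25.4–76.8 FPKM for bile duct (6 of 6). Mouse Exe 5 differed from the others. It had the highest sum of red blood cell markers (5 of 5, 1290 FPKM against 235–912 FPKM in the other mice) and of pancreatic acinar markers (8 of 8, 21.4 FPKM, against at most 5.51 FPKM), so the counts of the set that follow from the whole comparison are also given without it. In a whole-liver sample, fewer cells of a type and less RNA per cell cannot be told apart.

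As a group, the 46 genes stood high in liver. Ass1, Bhmt, Gnmt and Hpd were at 1000 FPKM or more on average, 26 genes were at 100 FPKM or more, and 8 were under 50 FPKM. Ass1 was the most abundant of the set, at rank 45 of all genes measured, and Bckdk the least abundant, at rank 6921. Together they made up between 1.80% (Con 5) and 2.28% (Exe 2) of the FPKM of a mouse. The plot of levels by pathway shows that the range within a group was usually wider than the distance between the group means.

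**Figure D1:**
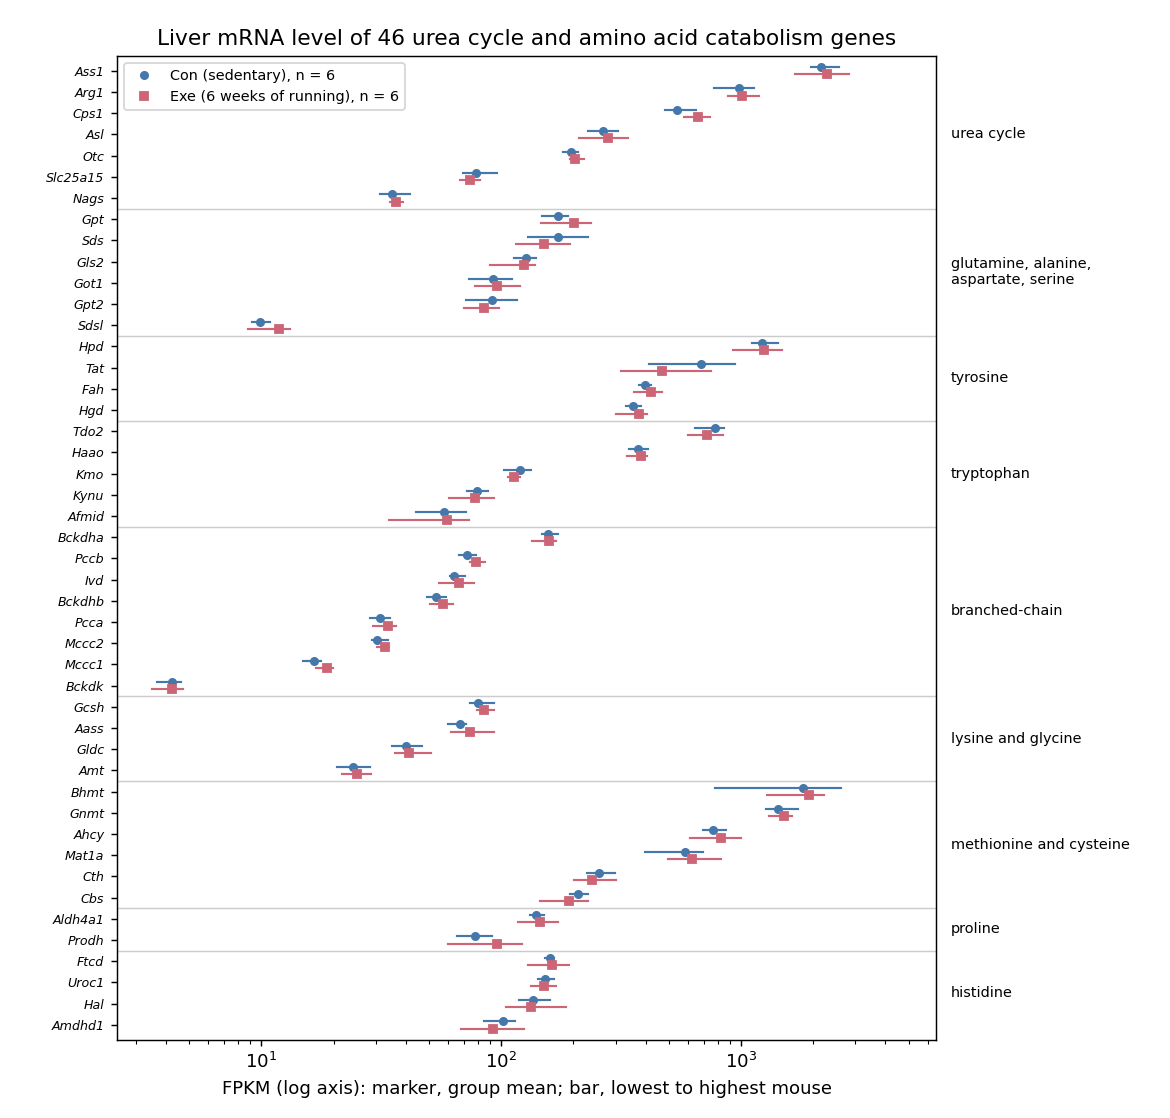
FPKM (log axis) of the 46 genes, in blocks by pathway; blue circles are means of 6 Con mice, red squares means of 6 Exe mice, and bars run from the lowest to the highest mouse. The bars of the 2 groups overlap for all 46 genes.

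Compared with the Con group, no gene of the set passed the adjusted threshold in the Exe group. On log2(FPKM + 1), limma with Benjamini-Hochberg adjustment called 0 of 10241 genes at an adjusted p of 0.05 (0%). The lowest value over all genes was an adjusted p of 0.519. At an unadjusted p of 0.05, 6 of the 46 genes passed (13.0%), against 636 of all genes tested (6.21%). Cps1, Sdsl, Mccc1, Mccc2 and Pccb were higher in Exe mice (5 genes, 10.9%, against 4.27% of all genes), and Tat was lower (1 gene, 2.17%, against 1.94%). The log2 fold change was above 0 for 32 genes (69.6%), against 57.5% of all genes, and below 0 for 14. The median log2 fold change was 0.056 for the set and 0.016 for all genes tested, and the spread between mice (SD) of the set's median was 0.073. The set's median was 0.010 after quantile normalization, 0.036 with the acute phase genes as a covariate and 0.094 after scaling to TPM. The median of all genes tested was 0.0053, 0.0092 and 0.049 in these fits, so TPM scaling raised the background as well. For 0 of the 46 genes were the groups free of overlap, against 0.254% of all genes tested.

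The sizes were small. The ratio of the Exe mean to the Con mean ran from 0.688 (Tat) to 1.23 (Prodh), and none passed 1.5 in either direction. The 95% interval of the log2 fold change included 0 for 40 genes and lay within 0.5 of 0 for 42 genes. Tat, Sds, Bhmt and Prodh were the 4 with wider limits, so for these genes the intervals still hold changes beyond that size. Without Exe 5, 9 genes of the set passed an unadjusted p of 0.05, against 8.9% of all genes, and Tat was no longer among them. All 9 were higher in Exe mice, against 5.37% of all genes. In the same fit 33 genes had a positive log2 fold change, against 55.7% of all genes, and 1 gene, Mccc1, was free of overlap between the groups, against 0.855% of all genes. Without Con 1, Con 2 or Exe 2, 3 genes of the set passed, where 5.26%, 5.77% and 4.1% of all genes did. That count was near the background without Con 1 or Con 2 and further from it without Exe 2. Hepatocyte markers had a mean sum of 79220 FPKM in Con and 89912 FPKM in Exe mice. Their part in the median log2 fold change of the set was not tested.

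**Figure D2:**
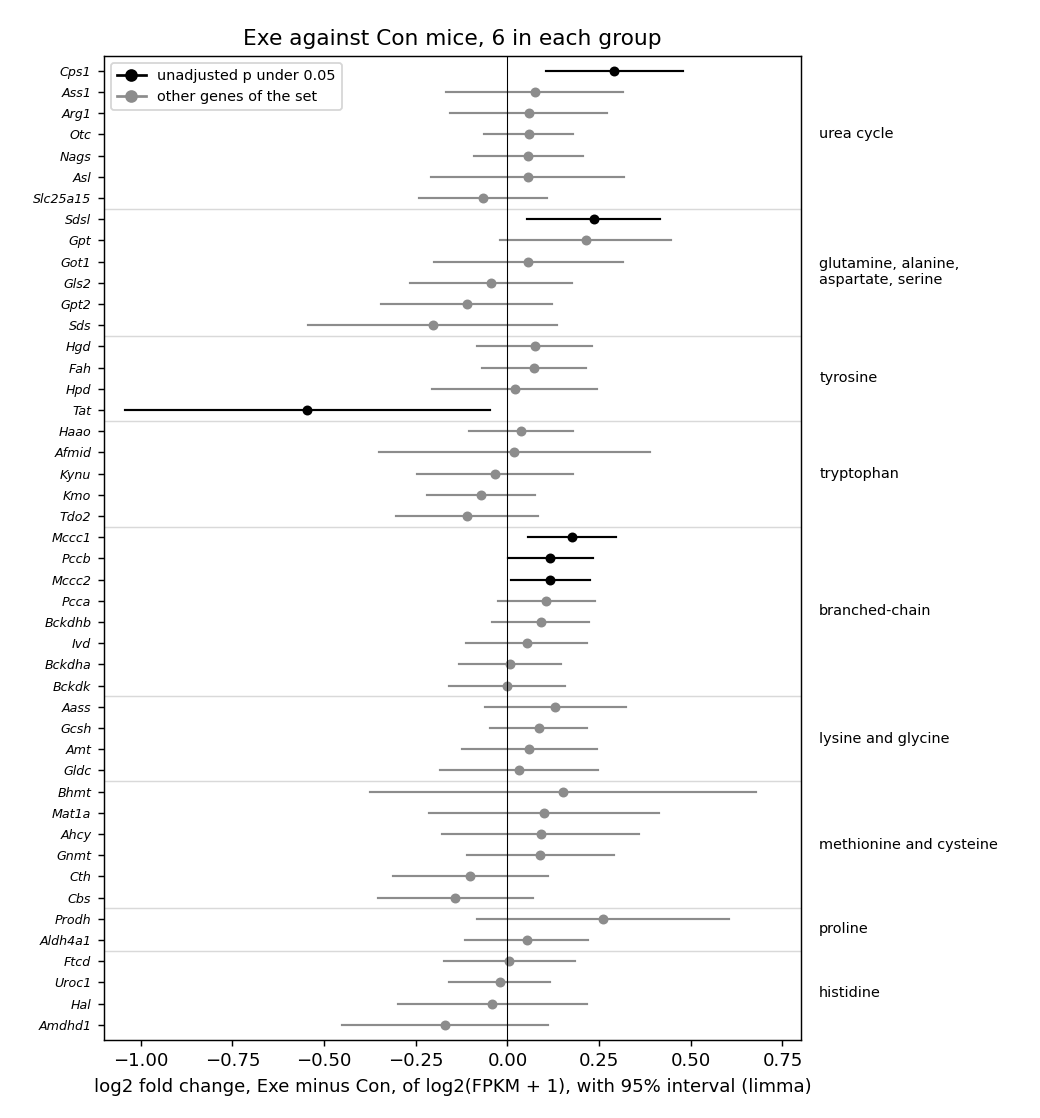
Log2 fold change of each gene (Exe minus Con, log2(FPKM + 1), limma) with its 95% interval, 6 mice in each group; black marks an unadjusted p under 0.05. Tat has the most negative value (-0.55) and Cps1 the most positive (0.29), and 40 intervals include 0.

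The urea cycle begins in the mitochondrion, where carbamoyl-phosphate synthetase 1, the product of Cps1, fixes ammonia. Cps1 (gene ID 227231) ran from 482 to 646 FPKM in Con mice, with a median of 519 FPKM, and from 579 to 740 FPKM in Exe mice, with a median of 659 FPKM. Exe 1, Exe 2 and Exe 3 were above every Con mouse, while Con 3 and Con 6 lay within the Exe range. The means were 542 ± 64.3 FPKM (SD, n = 6) in Con and 663 ± 66.2 FPKM (SD, n = 6) in Exe mice. The log2 fold change was 0.29 with a standard error of 0.087 (95% interval 0.10 to 0.48, limma unadjusted p = 0.00501, Benjamini-Hochberg adjusted p = 0.777). The exact permutation test over the same mice, two-sided, gave p = 0.0152, which is not adjusted. It is given below for each gene of the set that passed in limma. Cps1 kept its sign and its unadjusted p under 0.05 in 21 of 21 alternative fits, with log2 fold changes between 0.23 and 0.34.

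In the reported fit the other genes of the cycle differed less. Otc, ornithine transcarbamylase, was at 195 ± 12.7 FPKM in Con and 202 ± 10.4 FPKM in Exe mice. Ass1, argininosuccinate synthetase, was at 2157 ± 248 FPKM in Con and 2284 ± 365 FPKM in Exe mice, with both its highest and its lowest value in the Exe group (2824 FPKM in Exe 3, 1684 FPKM in Exe 5). The log2 fold change of Ass1 was 0.07 in the reported fit. After quantile normalization it was 0.25 (limma unadjusted p = 0.0887), against 0.23 for Cps1 in that fit. Asl, argininosuccinate lyase, was at 265 ± 30.1 and 279 ± 54.9 FPKM. The next enzyme, arginase 1, splits arginine into urea and ornithine. Its gene Arg1 was at 976 ± 139 FPKM in Con and 1012 ± 102 FPKM in Exe mice. Nags, whose product makes the N-acetylglutamate that activates carbamoyl-phosphate synthetase, was at 35.0 ± 3.81 and 36.3 ± 2.06 FPKM. The mitochondrial ornithine carrier Slc25a15 was the only gene of the 7 with a negative log2 fold change (-0.07), at 78.3 ± 9.88 and 74.4 ± 6.05 FPKM. Over the 7 genes the median log2 fold change was 0.058, and for the 6 genes other than Cps1 every 95% interval included 0.

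The genes that move nitrogen between amino acids, or release it from glutamine and serine, were divided, 3 with higher and 3 with lower means on the log2 scale. Sdsl, serine dehydratase-like, an enzyme related to the serine dehydratase of Sds, was among the lower genes in level. Sdsl (gene ID 257635) ran from 9.15 to 10.9 FPKM in Con mice, with a median of 9.79 FPKM, and from 8.78 to 13.2 FPKM in Exe mice, with a median of 12.3 FPKM. In 5 Exe mice it was above every Con mouse, and in the remaining mouse, Exe 4, it was the lowest of all 12. The means were 9.88 ± 0.686 FPKM and 11.9 ± 1.57 FPKM (SD, n = 6 each). The log2 fold change was 0.24 with a standard error of 0.084 (limma unadjusted p = 0.0147, adjusted p = 0.793, and exact two-sided permutation p = 0.0303). Without Exe 4 the log2 fold change was 0.31, the highest of its 21 alternatives.

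Sds, serine dehydratase, which turns serine into pyruvate and ammonia, was at 173 ± 36.8 FPKM in Con and 150 ± 33.2 FPKM in Exe mice. Its log2 fold change of -0.20 did not pass (limma unadjusted p = 0.219). Within a mouse, the ratio of Sds to Sdsl FPKM was 17.7 ± 4.27 in Con and 12.7 ± 2.10 in Exe mice, given as a description with no test. The alanine aminotransferases also lay on opposite sides of 0. Gpt, the cytosolic enzyme, was at 172 ± 16.1 FPKM in Con and 202 ± 33.4 FPKM in Exe mice (log2 fold change 0.21, limma unadjusted p = 0.0696, adjusted p = 0.821), with 4 Exe mice higher than any Con mouse and Exe 5 the lowest of all. Gpt2, the mitochondrial enzyme, was at 91.9 ± 15.02 and 84.6 ± 10.3 FPKM (log2 fold change -0.11). The ratio of Gpt to Gpt2 was 1.91 ± 0.344 in Con and 2.40 ± 0.392 in Exe mice, again with no test. Got1, cytosolic aspartate aminotransferase, was at 92.0 ± 13.8 and 96.0 ± 16.3 FPKM, and Gls2, the liver glutaminase that frees ammonia from glutamine, at 127 ± 10.1 and 124 ± 19.8 FPKM.

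Tyrosine catabolism held the gene with the greatest drop in mean. Tat, tyrosine aminotransferase, carries out the first step of tyrosine breakdown and is a textbook target of glucocorticoids and glucagon. Tat (gene ID 234724) ran from 412 to 944 FPKM in Con mice, with a median of 722 FPKM, and from 317 to 747 FPKM in Exe mice, with a median of 448 FPKM. Con 1, Con 2 and Con 3 were above every Exe mouse, and Exe 3 and Exe 5 were below every Con mouse, but Con 6 was nearly level with Exe 2 and Exe 1 lay among the higher Con mice. The means were 678 ± 201 FPKM and 466 ± 159 FPKM (SD, n = 6 each). The log2 fold change was -0.55 with a standard error of 0.23 (95% interval -1.04 to -0.05, limma unadjusted p = 0.0338, adjusted p = 0.793). An exact two-sided permutation test gave p = 0.0714, which misses 0.05. The limma p stayed under 0.05 in 14 of 21 alternative fits and in 5 of the 12 fits that left out a mouse (not without Con 1, Con 2, Con 3, Con 5, Exe 2, Exe 3 or Exe 5), with log2 fold changes from -0.69 without Exe 1 to -0.44 without Con 1. With the mean of the acute phase genes as a covariate, the log2 fold change was -0.54.

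The promoter of Tat is shown because it is the only gene of the set that passed with a lower level, and for comparison with the 3 promoters given further on. It holds the 150 bases just before the annotated start on the plus strand of RefSeq's GRCm38.p6 assembly (chr8:109990286-109990435), which is an earlier build than that of the files. Capitals mark matches on either strand to CCAAT (the CCAAT box), GGGCGG (the GC box), TATAAA (the TATA box), TGTTCT (1 arm of the glucocorticoid receptor motif) and TGACG (1 arm of the cAMP response motif), and the window holds 2 CCAAT matches.
Tat: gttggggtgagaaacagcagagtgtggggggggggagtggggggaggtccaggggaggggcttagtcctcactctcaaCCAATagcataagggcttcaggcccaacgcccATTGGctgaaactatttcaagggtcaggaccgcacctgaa
In the 250 bases before the start, CCAAT was found in 33.8% of all 32851 RefSeq promoters, GGGCGG in 32.7%, TATAAA in 12.4%, TGTTCT in 16.1% and TGACG in 17.8%. A match of these letters is a description of the window and not a binding site.

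The later enzymes of tyrosine breakdown did not share the lower level of Tat. Hpd, 4-hydroxyphenylpyruvate dioxygenase, was at 1224 ± 122 FPKM in Con and 1249 ± 188 FPKM in Exe mice. Hgd, homogentisate dioxygenase, was at 354 ± 17.4 and 375 ± 38.9 FPKM, and Fah, fumarylacetoacetate hydrolase, at 400 ± 19.9 and 421 ± 37.2 FPKM. In both Hgd and Fah, 4 Exe mice exceeded the whole Con group, whereas Exe 5 gave the lowest value of all 12. Their log2 fold changes were 0.02, 0.07 and 0.07, with every interval including 0. No test of the difference between Tat and these 3 genes was made.

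Tryptophan is opened by tryptophan dioxygenase, the product of Tdo2, at the head of the kynurenine pathway. Tdo2 was at 778 ± 72.0 FPKM in Con and 723 ± 89.1 FPKM in Exe mice, with a log2 fold change of -0.11 (95% interval -0.30 to 0.08). Afmid, kynurenine formamidase, spread widely, from 44.0 to 71.5 FPKM in Con mice and from 34.1 FPKM (Exe 5) to 73.3 FPKM (Exe 1) in Exe mice. Kmo, kynurenine monooxygenase, was at 119 ± 11.4 and 113 ± 7.02 FPKM. Kynureninase and 3-hydroxyanthranilate dioxygenase follow in the pathway. Kynu was at 79.0 ± 6.71 and 77.8 ± 12.2 FPKM, and Haao at 373 ± 29.4 and 383 ± 25.0 FPKM. None of the 5 passed an unadjusted p of 0.05, and their median log2 fold change was -0.03.

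Of the 6 genes past the unadjusted threshold, 3 belonged to the mitochondrial breakdown of leucine, isoleucine and valine. Mccc1 and Mccc2 encode both subunits of 3-methylcrotonyl-CoA carboxylase, a biotin enzyme of leucine breakdown, and Pcca and Pccb both subunits of propionyl-CoA carboxylase, a biotin enzyme that takes up propionyl-CoA from isoleucine, valine, methionine and threonine. Mccc1 (gene ID 72039) ran from 14.96 to 17.7 FPKM in Con mice, with a median of 16.7 FPKM, and from 16.9 to 19.95 FPKM in Exe mice, with a median of 18.98 FPKM. Only Exe 5 lay within the Con range, and the other 5 Exe mice exceeded the whole Con group. The means were 16.5 ± 1.01 and 18.8 ± 1.11 FPKM (SD, n = 6 each), a log2 fold change of 0.18 with a standard error of 0.056 (limma unadjusted p = 0.006935, adjusted p = 0.789, and exact two-sided permutation p = 0.00649). Mccc1 passed the unadjusted p in 21 of 21 alternative fits.

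Mccc2 (gene ID 78038) ran from 28.9 to 33.7 FPKM in Con mice, with a median of 29.6 FPKM, and from 30.3 to 34.0 FPKM in Exe mice, with a median of 33.1 FPKM. A single mouse in each group bridged the groups, since Con 4 was the highest Con mouse at 33.7 FPKM and Exe 5 the lowest Exe mouse at 30.3 FPKM. The means were 30.2 ± 1.80 and 32.8 ± 1.29 FPKM (SD, n = 6 each), a log2 fold change of 0.12 with a standard error of 0.050 (limma unadjusted p = 0.0359, adjusted p = 0.798, and exact two-sided permutation p = 0.0281). Pccb (gene ID 66904) ran from 66.8 to 78.6 FPKM in Con mice, with a median of 71.9 FPKM, and from 73.8 to 85.6 FPKM in Exe mice, with a median of 76.8 FPKM. Exe 2 and Exe 6 were above every Con mouse, and 5 Con mice were below every Exe mouse. The means were 72.0 ± 3.95 and 78.2 ± 4.62 FPKM (SD, n = 6 each), a log2 fold change of 0.12 with a standard error of 0.054 (limma unadjusted p = 0.0487, adjusted p = 0.799, and exact two-sided permutation p = 0.0303). Mccc2 passed the unadjusted p in 9 and Pccb in 8 of 21 alternative fits, with a positive log2 fold change in all 21 for both. Of the fits that left out a mouse, Mccc2 passed only in those without Con 3, Con 4 or Exe 5, and Pccb only in those without Con 5, Exe 1, Exe 4 or Exe 5.

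**Figure D3:**
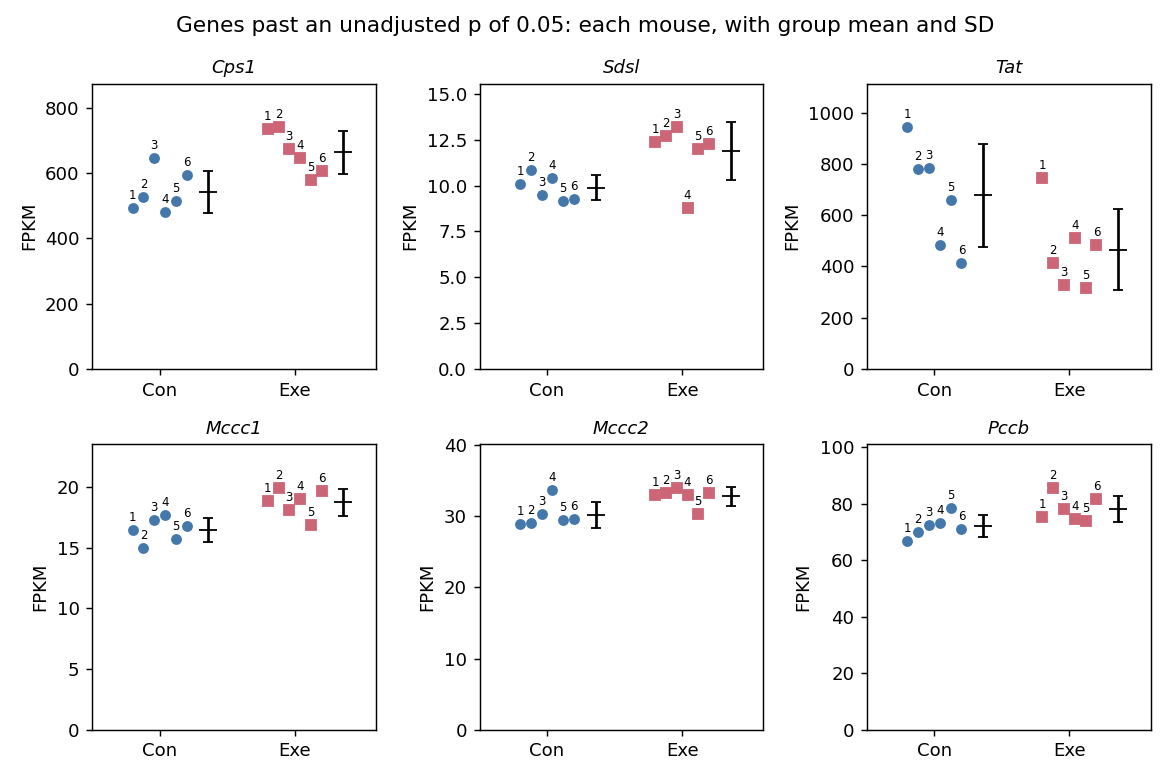
FPKM of the 6 genes with an unadjusted limma p under 0.05, 1 point for each mouse with its number, and beside each group the mean and SD of 6 mice; axes start at 0. The groups overlap in every panel, with Exe 4 low for Sdsl and Exe 5 low for Mccc1 and Mccc2.

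The promoters of Mccc1, Mccc2 and Pccb are shown because these 3 genes of branched-chain amino acid breakdown passed the unadjusted p in the reported fit. They lie on the minus strand, at chr3:36000679-36000828, chr13:100015640-100015789 and chr9:101034885-101035034 of GRCm38.p6 (RefSeq), and are given as 150 bases before the start with the same motifs in capitals.
Mccc1: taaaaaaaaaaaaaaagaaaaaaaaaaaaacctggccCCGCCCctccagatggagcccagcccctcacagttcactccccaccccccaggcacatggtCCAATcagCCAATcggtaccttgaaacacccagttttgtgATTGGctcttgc
Mccc2: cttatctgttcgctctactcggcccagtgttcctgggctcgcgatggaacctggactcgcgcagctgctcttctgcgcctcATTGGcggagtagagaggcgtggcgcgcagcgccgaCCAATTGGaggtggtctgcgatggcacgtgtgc
Pccb: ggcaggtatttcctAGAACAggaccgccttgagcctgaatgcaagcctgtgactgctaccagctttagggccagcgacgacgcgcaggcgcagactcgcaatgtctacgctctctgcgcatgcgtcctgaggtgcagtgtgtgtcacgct
Mccc1 and Mccc2 each held 3 CCAAT matches within 150 bases, in Mccc2 with 2 of them overlapping on opposite strands, and Mccc1 also held a GC box. Pccb held no CCAAT and a single match to TGTTCT. At least 3 CCAAT matches were found in 1.2% of all promoters of that length and in 4 of the 39 promoters of the set, those of Got1, Ivd, Mccc1 and Mccc2. At least 1 was found in 24.5% of all promoters and in 20 of the 39, which belong to 36 of the 46 genes. Within 250 bases, CCAAT was found in 56.4% of the promoters of the set, GGGCGG in 43.6%, TATAAA in 12.8%, TGTTCT in 10.3% and TGACG in 7.69%. The median GC content of the 150 bases was 58% for the set and 54% for all promoters, and the part of base composition in these shares was not tested. Cps1 and Sdsl had no promoter entry.

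The remaining genes of branched-chain breakdown did not pass, although the log2 fold changes of Pcca and Bckdhb (0.11 and 0.09) were close in size to those of Mccc2 and Pccb. Pcca was at 31.1 ± 2.13 FPKM in Con and 33.6 ± 2.46 FPKM in Exe mice (limma unadjusted p = 0.108, adjusted p = 0.859). Bckdha and Bckdhb encode subunits of the branched-chain ketoacid dehydrogenase, and Bckdk its inhibitory kinase. Bckdha was at 157 ± 10.1 and 158 ± 12.6 FPKM, Bckdhb at 53.6 ± 3.31 and 57.2 ± 4.45 FPKM, and Bckdk at 4.23 ± 0.400 and 4.24 ± 0.467 FPKM. Ivd, isovaleryl-CoA dehydrogenase, which acts before Mccc1 and Mccc2 in leucine breakdown, was at 63.8 ± 3.32 and 66.6 ± 8.28 FPKM. Of the 8 genes, 7 had a positive log2 fold change, with a median of 0.10, but Bckdha turned negative after quantile and median-of-ratios scaling, and Bckdk, within rounding of 0, turned positive after quantile and TPM scaling. For partner subunits, the ratio within a mouse was 0.547 ± 0.025 in Con and 0.572 ± 0.024 in Exe mice for Mccc1 to Mccc2. It was 0.432 ± 0.022 and 0.430 ± 0.029 for Pcca to Pccb, and 2.95 ± 0.341 and 2.79 ± 0.342 for Bckdha to Bckdhb. These ratios are given with no test.

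Lysine and glycine breakdown is represented by Aass, the enzyme that starts lysine breakdown, and by Gldc, Amt and Gcsh, parts of the mitochondrial glycine cleavage system. Aass was at 67.3 ± 3.87 FPKM in Con and 74.4 ± 11.7 FPKM in Exe mice (log2 fold change 0.13, limma unadjusted p = 0.167), with 4 Exe mice above every Con mouse. Gldc was at 40.3 ± 4.63 and 41.4 ± 6.44 FPKM, Amt at 24.1 ± 2.74 and 25.2 ± 2.83 FPKM, and Gcsh at 80.1 ± 6.92 and 84.9 ± 4.87 FPKM. All 4 log2 fold changes were positive and none passed.

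Methionine is turned into S-adenosylmethionine by the product of Mat1a, used up as methyl donor by Gnmt, recovered from homocysteine by Bhmt, or passed on to cysteine by Cbs and Cth. Mat1a was at 584 ± 106 FPKM in Con and 626 ± 122 FPKM in Exe mice, and Gnmt, glycine N-methyltransferase, at 1428 ± 178 and 1518 ± 155 FPKM. Bhmt, betaine-homocysteine methyltransferase, spread more than any other gene of the set, from 781 FPKM (Con 5) to 2609 FPKM (Con 1), a 3.34-fold range that lay within the Con group. Its log2 fold change of 0.15 had a 95% interval from -0.38 to 0.68. Ahcy, adenosylhomocysteinase, which frees homocysteine, was at 764 ± 69.8 and 825 ± 169 FPKM. Cystathionine synthase and cystathionine lyase go the other way in sign. Cbs was at 210 ± 12.5 FPKM in Con and 192 ± 31.6 FPKM in Exe mice (log2 fold change -0.14), and Cth at 255 ± 30.2 and 238 ± 34.2 FPKM (-0.10). All 6 intervals included 0.

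Proline dehydrogenase, the product of Prodh, opens proline breakdown, and Aldh4a1 completes it to glutamate. Prodh had the next highest log2 fold change of the set, 0.26, but with a standard error of 0.16 it did not pass (limma unadjusted p = 0.127, adjusted p = 0.878). It ran from 65.4 to 91.6 FPKM in Con mice, with a median of 77.6 FPKM, and from 59.7 to 122 FPKM in Exe mice, with a median of 101 FPKM. Exe 1, Exe 2, Exe 3 and Exe 6 exceeded the whole Con group, Exe 5 was the lowest of all 12, and Exe 4 lay in the Con range. Aldh4a1 was at 139 ± 8.50 and 145 ± 17.5 FPKM.

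The histidine genes act in order, Hal, Uroc1, Amdhd1 and Ftcd, from histidine to glutamate. Hal, histidine ammonia-lyase, was at 135 ± 15.6 FPKM in Con and 133 ± 28.3 FPKM in Exe mice, and Uroc1, urocanase, at 152 ± 9.06 and 150 ± 12.7 FPKM. Amdhd1, imidazolonepropionase, was at 102 ± 11.4 and 92.1 ± 20.9 FPKM, and Ftcd, formiminotransferase, at 160 ± 5.22 and 162 ± 23.1 FPKM. Hal, Uroc1 and Amdhd1 were all highest in Exe 3, and Hal and Amdhd1 lowest in Exe 6, so the Exe group held both ends of their range. Their median log2 fold change was -0.03, and none of the 4 passed.

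The spread between mice was larger for these genes than for most. The median residual SD on the log2 scale was 0.16 for the set and 0.14 for all genes tested, and 29 of 46 genes were above the median of all genes. Bhmt, Tat, Afmid, Prodh and Sds were above the 90th percentile of all genes, at percentiles 97.5, 97.2, 93.7, 92.3 and 92.0. Mccc2, at percentile 3.32, had the smallest spread of the set, and Mccc1 and Pccb were at percentiles 9.09 and 7.62. The small log2 fold changes of these 3 genes therefore passed where wider ones, such as that of Prodh, did not.

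Single mice stood out across pathways. Exe 5 had the lowest value of the 12 mice for 19 of the 46 genes (41.3%), against 6.42% of all genes tested. These included all 4 tyrosine genes, both proline genes, Ass1, Asl and Slc25a15 of the urea cycle, and Gpt and Gls2. Exe 2 was highest for 14 genes (30.4%), against 18.7% of all genes, and Exe 3 for 12 genes (26.1%), against 4.24%. Relative to each gene's median over the other mice, the median deviation of the set was -0.18 on the log2 scale in Exe 5 and 0.12 in Exe 2. Exe 5 and Con 1 also had the highest sums of acute phase genes (8 of 8 in the files, 41356 and 41730 FPKM, against 6869–28008 FPKM in the others), while in Con 1 the median deviation of the set was -0.03. The part of the blood, pancreatic and acute phase values in the low levels of Exe 5 was not tested.

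**Figure D4:**
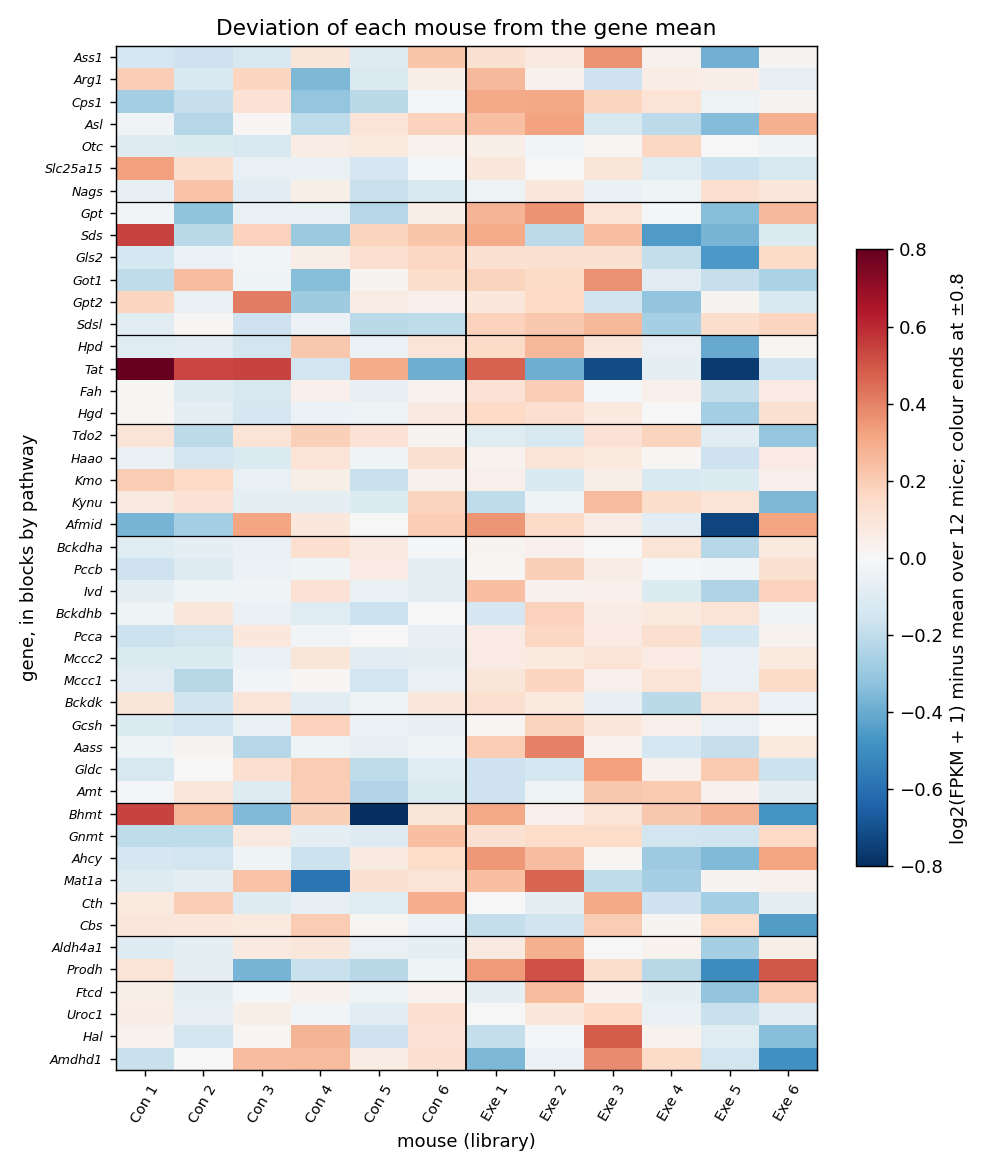
Deviation of each mouse from the gene's mean over 12 mice, on log2(FPKM + 1), for the 46 genes in blocks by pathway (red above, blue below, colour ending at 0.8 on either side, which 2 values pass). The column of Exe 5 is mostly blue, and Tat and Bhmt show the strongest colours. Taken instead from each gene's median over the other mice, the median deviation in Exe 5 was -0.18.

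Whether genes of a chain moved together from mouse to mouse was examined in 10 pairs, over 12 mice. None passed a Benjamini-Hochberg adjusted p of 0.05 over the 10. The pair of Tat and Per1, a clock gene that also responds to glucocorticoids, had the highest correlation, with Pearson's r = 0.734 (permutation p = 0.00882, adjusted p = 0.0882) and Spearman's rho = 0.671 (permutation p = 0.0201, adjusted p = 0.201). It was r = 0.723 without Con 1 and Con 3, the mice farthest from the median of Tat (permutation p = 0.0218). Within groups it was 0.707 in Con (exact permutation p = 0.117, n = 6) and 0.75 in Exe mice (exact permutation p = 0.0806, n = 6). Per1 itself was at 6.09 ± 2.97 FPKM in Con and 4.56 ± 2.20 FPKM in Exe mice and did not pass (limma unadjusted p = 0.323, adjusted p = 0.931). Sds and Tat had r = 0.454 (permutation p = 0.138, adjusted p = 0.32), Cps1 and Arg1 r = 0.454 (p = 0.139, adjusted p = 0.32), Mat1a and Gnmt r = 0.445 (p = 0.148, adjusted p = 0.32), and Sds and Pck1, a gene of gluconeogenesis, r = 0.431 (p = 0.16, adjusted p = 0.32), all by permutation. The other 5 pairs, Ass1 with Asl, the acute phase mean with Tat, Hal with Gls2, Tat with Tdo2 and Gpt with Gpt2, had r between 0.0455 and 0.384, with adjusted permutation p of 0.364 or more. Spearman's rho of the 9 pairs other than Tat and Per1 lay between -0.154 and 0.434, with adjusted permutation p of 0.501 or more.

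Other genes of amino acid metabolism, outside the set, were taken from 3 lists of enzymes, carriers and regulators. Of 91 tested, 12 passed an unadjusted p of 0.05 (against 6.21% of all genes tested), 8 higher and 4 lower in Exe mice, and 0 passed an adjusted p of 0.05 in limma. The 12 became 20 without Exe 5 (against 8.9% of all genes) and 6 without Con 5 (against 5.85%). They became 7 without Con 2, Exe 2 or Exe 6 (against 5.77%, 4.1% and 5.06%). Of these lower counts, the one without Con 5 was nearest to its background, and none was tested against it. Of the 12 genes, 8 were also under 0.05 when tested by exact permutation, all but Shmt1, Ddo, Slc25a22 and Slc7a2. Among 60 other enzymes, 44 had a positive log2 fold change, with a median of 0.07. Dmgdh, dimethylglycine dehydrogenase, which follows the Bhmt step in choline breakdown, was at 168 ± 7.29 FPKM in Con and 195 ± 14.9 FPKM in Exe mice (limma unadjusted p = 0.00249, adjusted p = 0.708). Its groups did not overlap, with 154–175 FPKM against 178–218 FPKM, as was the case for 0.254% of all genes tested. Any gene free of overlap gives the smallest exact two-sided permutation p that 6 against 6 mice allow, 0.00216. Dbt and Dld, subunits of the branched-chain ketoacid dehydrogenase beside Bckdha and Bckdhb, and Mmut, which completes propionyl-CoA breakdown after Pcca and Pccb, were among the 8 higher genes, with log2 fold changes of 0.16, 0.13 and 0.14. Got2, Shmt1, Bhmt2 and Ddo were the other 4, with log2 fold changes from 0.15 to 0.32. Oat, ornithine aminotransferase, was lower, at 652 ± 77.6 FPKM in Con and 543 ± 81.1 FPKM in Exe mice (log2 fold change -0.27, limma unadjusted p = 0.0236, adjusted p = 0.793).

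Among 17 carriers, 7 had a positive and 10 a negative log2 fold change, and Slc25a22, a mitochondrial glutamate carrier, and Slc7a2, a carrier of arginine and other cationic amino acids, passed as lower (-0.38 and -0.31). Among 14 regulators, 7 were on each side. Klf15, a transcription factor known for its control of amino acid breakdown genes, was the one that passed, with a mean of 85.4 FPKM (72.6–101) in Con and 66.3 FPKM (53.3–79.4) in Exe mice (log2 fold change -0.36, limma unadjusted p = 0.00443, adjusted p = 0.756, and exact two-sided permutation p = 0.00866). At the ends of the lists but far from passing were Csad among the enzymes (-0.31), Slc43a1 among the carriers (0.21) and Onecut1 among the regulators (0.52).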

How the data were processed

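RNA from 12 livers, 1 library for each mouse, was extracted with TRIzol and sequenced with paired ends on the DNBseq platform. The authors filtered the reads and used HISAT for alignment to GRCm39, and the values deposited are FPKM with 2 decimals. The notes of the submitters also list Bowtie2 and mm10 without a role. The tool behind the FPKM, its annotation, its use of strand and any scaling between mice are not given in the sources used here, so similar neighbours such as Bhmt and Bhmt2 could have shared reads.

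Groups came from the sample titles. Because the study's own test needs counts, log2(FPKM + 1) was fitted instead in R 4.3.3 with limma 3.58.1 (lmFit, eBayes with trend, group as the only term) over the 10241 genes with at least 1 FPKM in at least 6 mice, with Benjamini-Hochberg adjustment over all of them. The pseudocount understates changes of low genes. A gene was called at an adjusted p of 0.05 with a log2 fold change past 1 in either direction. The reported fit was first checked on simulated data, and the alternative fits were not. A pass was required only at a log2 fold change of 1, larger than any in the set. An exact two-sided permutation test over all 924 divisions of the mice was computed for each gene of the set and of the lists and is given for genes past an unadjusted p of 0.05, and 10 relations were tested with 100000 permutations (Python 3.11.15, numpy 2.4.6, pandas 2.3.3, scipy 1.17.1). The depth in reads is unknown, so no counting error is given, and the spread between 6 mice is the error used. Alternatives were quantile, TPM and median-of-ratios scaling, a pseudocount of 0.1, other filters, robust moderation, a replicate block, an acute phase covariate and each mouse left out in turn.

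The genes of the set, the lists and the tests were chosen with earlier results of these data known. All 46 genes could be named, of the other lists those past an unadjusted p of 0.05 or at either end, and regulators or hormone response genes beside a gene of the set. Promoters are from RefSeq (GRCm38.p6), matched by symbol.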

Additional observations from a re-analysis of the deposited data

Results flagged for a closer look

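In 10 of 92 sets of 6 mice (46 genes, 2 groups), 1 mouse lay so far from its neighbour on the log2 scale that Dixon's ratio, its gap divided by the range of the group, passed the 95% critical value. Chance gives about 1 in 20 such sets. In 7 of the 10 the mouse was Exe 5 or Con 4.

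Exe 5 was the low mouse of the Exe group for Mccc2 (30.3 FPKM against 33.0–34.0 in the others, Dixon's ratio 0.738), Bckdha (134 against 158–170 FPKM, 0.693), Haao (336 against 379–405 FPKM, 0.646) and Hgd (301 against 363–405 FPKM, 0.634). Con 4 was the high mouse of the Con group for Ivd (70.4 against 61.3–63.5 FPKM, 0.744), Mccc2 (33.7 against 28.9–30.4 FPKM, 0.691) and Gcsh (93.6 against 73.8–79.8 FPKM, 0.672). Sdsl was low in Exe 4 (8.78 against 11.98–13.19 FPKM, 0.761), Bhmt was low in Exe 6 (1286 against 1844–2212 FPKM, 0.665), and Aass was low in Con 3 (59.97 against 67.1–71.4 FPKM, 0.645). On FPKM without the log, 6 of the 10 passed.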

How the results depend on the processing

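Under 21 alternative fits and other settings, 1293 values were recomputed. Of these, 1210 stayed in the same direction and on the same side of their threshold or near their value. For the 966 fold changes of genes of the set, that threshold was the adjusted p, which none passed in any fit. A gene that lost its unadjusted p in some fits, such as Tat, Mccc2 or Pccb, was therefore still counted as the same. In all, 67 values changed sign, none of them past an unadjusted p of 0.05 either as reported or under the alternative. No gene of the set reached an adjusted p of 0.05 in limma with Benjamini-Hochberg adjustment under any of the 21, the lowest being 0.238 (Sdsl). With no filter on low levels, 1 gene of all passed an adjusted p of 0.05 (0 with the filter). The count of genes of the set past an unadjusted p of 0.05 ran from 3 (without Con 1, Con 2 or Exe 2) to 9 (without Exe 5) when a mouse was left out, that of the other amino acid genes from 6 (without Con 5) to 20 (without Exe 5), with 7 without Con 2, Exe 2 or Exe 6, and that of all genes from 418 (without Exe 2) to 905 (without Exe 5). The correlation of Tat and Per1 over mice (Pearson's r) ran from 0.661 to 0.823 when a mouse was left out, with a permutation p of 0.00265 (adjusted p = 0.0265) without Exe 2, and was 0.723 without the 2 farthest mice; the cause was not tested. The scaling moved the balance of directions. Of genes past an unadjusted p of 0.05, 437 of 636 were higher in Exe mice as deposited. That was 348 of 617 after quantile normalization, 354 of 628 after median-of-ratios scaling and 694 of 794 as TPM. Of the set, 29, 30 and 35 genes had positive log2 fold changes under quantile, median-of-ratios and TPM scaling, against 32 as deposited. Over all genes tested the shares with a positive log2 fold change were 52.7%, 51.7% and 69.7%, against 57.5% as deposited. Over the alternatives 16 genes of the set changed sign at least once. On the log2 scale, with quantile normalization Afmid was -0.015, Haao -0.0080, Bckdha -0.059, Bckdk 0.00020 and Ftcd -0.050, with TPM Kynu was 0.0038, Bckdk 0.032 and Uroc1 0.016, with median-of-ratios scaling Bckdha was -0.0074 and Ftcd -0.0085, with the acute phase covariate Hpd was -0.032, Afmid -0.052, Bckdha -0.034, Bckdk 0.023 and Ftcd -0.018. With a mouse left out, the log2 fold changes of genes that changed sign ranged as follows, Afmid -0.054 to 0.17, Bckdha -0.014 to 0.053, Bckdk -0.033 to 0.042, Ftcd -0.045 to 0.069, Hpd -0.031 to 0.10, Arg1 -0.0076 to 0.10, Got1 -0.010 to 0.11, Mat1a -0.0063 to 0.16, Hal -0.14 to 0.023, Gldc -0.030 to 0.077, Bhmt -0.073 to 0.27, Uroc1 -0.055 to 0.012, Kynu -0.088 to 0.035, Asl -0.0045 to 0.13, Gls2 -0.080 to 0.043. Likewise for Pearson's r, each named by its pair (correlation of Tat and Tdo2 over mice, for example), Tat and Tdo2 -0.0527 to 0.213, acute phase mean and Tat -0.108 to 0.408, Gpt and Gpt2 -0.0928 to 0.126, Hal and Gls2 -0.0842 to 0.245, while without the 2 farthest mice r was -0.171 for Tat and Tdo2 and -0.0755 for Gpt and Gpt2. The cause of these changes was not tested. Without the log, Dixon's ratio was 0.603 for Bhmt, 0.624 for Haao and 0.6 for Hgd, under the critical value, and Aass no longer passed. The replicate numbers share no animal, and deviations of mice with the same number correlated between -0.478 and 0.165, so no pairing was assumed. With the replicate block, 567 genes passed an unadjusted p of 0.05, and 5 of the set, where Mccc2 and Pccb were lost and Sds was gained.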
